A study of Homo sapiens with 12 samples.

Results

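The miR-148 and miR-152 family comprises the microRNAs cut from 3 human hairpins, MIR148A, MIR148B and MIR152. Its members were taken by name, as all strands called miR-148a, miR-148b or miR-152 in the deposited tables, and these were 6 strands, a 3p and a 5p strand of each hairpin, of 753 microRNAs listed in both tables. All 6 were listed in both, so no member was lost to the authors' filter on low values. A microRNA guides an Argonaute protein to messenger RNAs that pair with its seed, bases 2 to 8 from the 5′ end, and these messages are then destabilised or translated less. Of the strands of a hairpin, one is usually kept as the guide and the other, the passenger, is mostly discarded. The 3p strands are the known guides of this family. They are best known as repressors of DNMT1, the maintenance DNA methyltransferase, and miR-148a is also known for its effects on low-density lipoprotein receptor levels in liver and on B cell tolerance.

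Small RNA was sequenced from K562, a human erythroleukaemia cell line, in 12 libraries that formed 4 groups of 3. Cells that received a non-targeting guide RNA (sgNT) were the control of sgCYRANO cells, whose guide is directed against CYRANO, a long non-coding RNA. A wild-type line (WT) that received no guide was the control of a ZSWIM8-/- line (ZSWIM8 KO), for which the labels also list no guide. ZSWIM8 is the substrate receptor of a ubiquitin ligase in target-directed microRNA decay, the process in which a target RNA with extensive pairing brings about the loss of the microRNA bound to it, and miR-7 is the microRNA lost in this way through CYRANO. The labels do not say how the ZSWIM8-/- line was made or whether it or the guide-bearing cells are single clones, so line-to-line differences and the loss of ZSWIM8 cannot be told apart.

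The sequences are shown because the guides share 1 seed while the passengers do not, and because the guides differ by few bases, which bears on how their reads could be told apart. RefSeq (GRCh38.p14) had a mature entry for 5 of the 6 strands, all but miR-148a-5p, and capitals mark bases 2 to 8.
hsa-miR-148a-3p: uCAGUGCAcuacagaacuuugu
hsa-miR-148b-3p: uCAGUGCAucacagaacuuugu
hsa-miR-152-3p: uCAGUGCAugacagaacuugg
hsa-miR-148b-5p: aAGUUCUGuuauacacucaggc
hsa-miR-152-5p: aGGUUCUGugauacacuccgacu

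The 3 guides were the only names of 2370 in the RefSeq table with CAGUGCA at bases 2 to 8. Counted from the 5′ end, miR-148b-3p differed from miR-148a-3p by C9U and U10C, outside the seed, and was the same at the other 20 bases. miR-152-3p, which is 21 bases long, differed from miR-148a-3p by C9U, U10G and U20G over the 21 bases they share, and from miR-148b-3p by C10G and U20G. The labels do not say how reads that match more than 1 family member were counted. With so few differences, some reads of the scarcer guides could belong to the abundant one, and their levels are uncertain to that extent.

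The hairpins lie on 3 chromosomes. MIR148A spans chr7:25949919-25949986 on the - strand of GRCh38, overlaps no other annotated gene, and lies 202254 bases from the nearest protein-coding gene, NFE2L3. MIR148B spans chr12:54337216-54337314 on the + strand, within introns of COPZ1, a coat protein subunit gene on the same strand, and of the overlapping non-coding gene AC078778.2. MIR152 spans chr17:48037161-48037247 on the - strand, within an intron of COPZ2, a paralog of COPZ1, also on the same strand.

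The deposited values were the authors' own edgeR comparisons, with no value for a single library. The headers name no numerator, and a positive fold change was taken to mean a higher level in sgCYRANO or ZSWIM8 KO. Read this way, miR-7-5p, the microRNA that CYRANO is known to destabilise, was higher in sgCYRANO (6102 to 34884 reads per 1000000) and in ZSWIM8 KO (4617 to 23494). Group means in counts per 1000000 reads (CPM) were recovered from the deposited columns, and library totals, read from the smallest steps of these means, ranged from 861000 to 2490000 reads. Values after ± are standard errors derived from the deposited p-values. Erythroid and megakaryocytic marker strands were present, 5 of 5 measured, with summed levels of 48873, 47578, 58764 and 63847 CPM in sgNT, sgCYRANO, WT and ZSWIM8 KO. Most of each sum was 1 strand, miR-126-3p, with 35369, 33691, 42776 and 48225 CPM in the same order. Within that sum, the erythroid miR-144-3p had 119.4 CPM in WT and 239.1 in ZSWIM8 KO (standard error 0.60 on the log2 scale, adjusted p = 0.364), and miR-451a had 574.5 and 956.3 CPM (log2 fold change 0.74 ± 0.62, adjusted p = 0.583), in the authors' deposited table. Neither passed. The more abundant miR-486-5p of the same sum had a lower mean in ZSWIM8 KO, with 14449 CPM in WT and 13387 in ZSWIM8 KO. Its log2 fold change was -0.11 ± 0.22 (adjusted p = 0.859, authors' deposited table), which did not pass. Over the 5 strands of that sum, the log2 fold change in ZSWIM8 KO was positive for 4 and negative for 1, and 0 passed. Of 6 marker strands of liver, neuron, muscle and epithelium, miR-124-3p and miR-133a-3p were not listed, and the other 4 summed to 78.0, 82.0, 99.96 and 140.0 CPM. Within that list the epithelial miR-375-3p had 3.70 CPM in WT and 49.2 in ZSWIM8 KO (adjusted p = 0.201, authors' deposited table), short of the threshold as well. The other epithelial strand, miR-200c-3p, had 94.6 CPM in WT and 87.9 in ZSWIM8 KO (adjusted p = 0.859, authors' deposited table). Of the 4 measured, the log2 fold change in ZSWIM8 KO was positive for 3 and negative for 1. The part of these marker strands in the results below was not tested.

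hsa-miR-148a-3p made up nearly all of the family. Its group mean was 113806 CPM in sgNT and 105521 in sgCYRANO, and it was 111261 in WT and 150391 in ZSWIM8 KO, which gave it rank 3 among all microRNAs in both tables, between miR-92a-3p and miR-146b-5p. This 1 strand held 11.4%, 10.6%, 11.1% and 15.04% of all microRNA reads in the same order. These are shares of the reads of a whole culture, so more cells with the strand and more of it per cell cannot be told apart, and a rise of one share lowers the others. ZSWIM8 KO was the group that stood apart, while sgNT, sgCYRANO and WT lay close to one another.

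hsa-miR-148b-3p had 2818 CPM in sgNT and 2485 in sgCYRANO, against 2335 in WT and 3323 in ZSWIM8 KO, rank 28 in both tables. The level of miR-148a-3p was 40.4 to 47.6 times that of miR-148b-3p over the 4 groups. Strands were compared per read, since all are of similar length, though adapter ligation is known to favour some sequences over others. miR-152-3p was far scarcer, with 72.3 CPM in sgNT and 56.6 in sgCYRANO, and with 66.1 in WT and 68.5 in ZSWIM8 KO (rank 170 and 172). Of the summed guides, miR-148a-3p held between 97.5% and 97.9%, miR-148b-3p between 2.05% and 2.41%, and miR-152-3p between 0.0445% and 0.0619%, ranges that were not tested between groups. The guides summed to 116696 CPM in sgNT and 108063 in sgCYRANO, and to 113663 in WT and 153783 in ZSWIM8 KO. Levels set across both tables were scaled in the same way but not tested against each other.

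Between WT and ZSWIM8 KO the passenger mean moved with its guide for miR-148b, and opposite to it for miR-148a and miR-152. For miR-148b and miR-152 the arms were not shown to differ. hsa-miR-148a-5p had 575.6 CPM in sgNT and 506.3 in sgCYRANO, with 664.9 in WT and 594.7 in ZSWIM8 KO, so that this passenger was at 7.97 to 10.1 times the level of the guide miR-152-3p (rank 72 and 69). miR-148b-5p had 3.15, 3.57, 2.39 and 3.88 CPM in the same order of groups. miR-152-5p had 1.27, 0.944, 1.18 and 1.02 CPM. Each of the 4 means of miR-152-5p lay above the level that 3 reads in a group would give, which was 0.425 to 0.788 CPM.

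For the scarcest strands the group means could be taken apart into whole reads. The reads of miR-152-5p in the deepest, middle and shallowest library were 0, 2 and 4 in sgNT, 1, 3 and 1 in sgCYRANO and 1, 2 and 1 in WT, and ZSWIM8 KO held 7 in all. The libraries of sgNT, sgCYRANO and WT overlapped, while the 7 reads of ZSWIM8 KO could be divided over its libraries in 5 ways. Exact Poisson intervals of the group level cover counting error only. These intervals ran from 0.401 to 2.38 CPM in sgNT and from 0.399 to 2.04 CPM in ZSWIM8 KO. miR-148b-5p had 8 reads in WT (3, 1 and 4), 19 in sgCYRANO and 27 in ZSWIM8 KO, and between 15 and 20 in sgNT. The libraries cannot be tied to replicate numbers. The more abundant members sum too many reads for such a division, so no spread over libraries can be given for them.

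**Figure D1:**
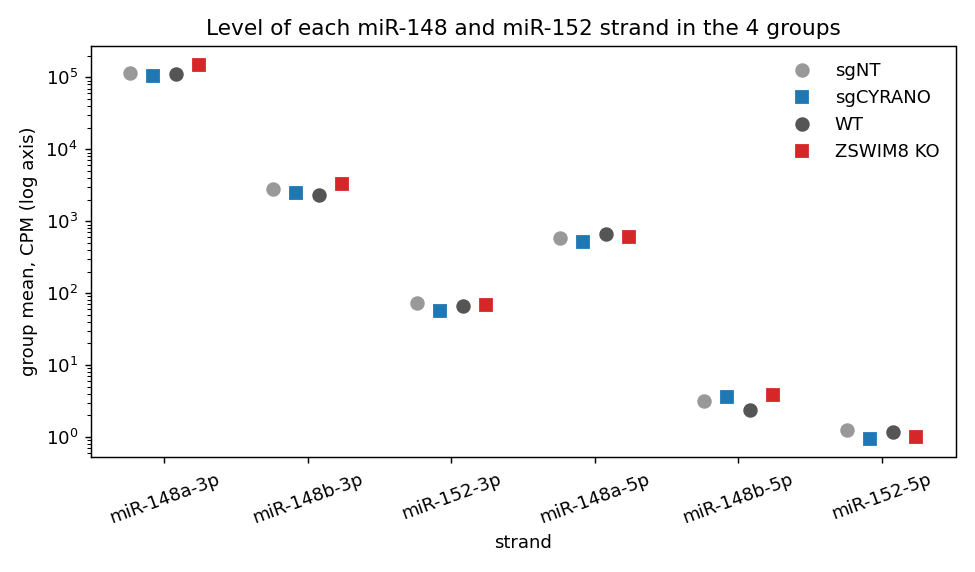
Group mean of each strand in CPM, on a log axis, for the 4 groups of 3 libraries; circles are the control groups and squares the altered ones, and no error is drawn because no values of single libraries were used. miR-148a-3p is the highest strand in every group, from 105521 in sgCYRANO to 150391 in ZSWIM8 KO, and miR-152-5p is the lowest, from 0.944 to 1.27.

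In ZSWIM8 KO the 2 abundant guides were higher than in WT, and the abundant passenger did not pass the test. In the authors' deposited table hsa-miR-148a-3p rose by 0.43 ± 0.07 on the log2 scale, or 1.35-fold (95% interval 1.23 to 1.49, edgeR quasi-likelihood test, adjusted p = 4.31e-08). hsa-miR-148b-3p rose by 0.51 ± 0.10 in the authors' deposited table, or 1.42-fold (1.24 to 1.64, adjusted p = 3.02e-05). miR-148a-5p had -0.16 ± 0.13 in the authors' deposited table (adjusted p = 0.528) and did not pass. The scarce guide, miR-152-3p, had 0.05 ± 0.23 in the authors' deposited table (adjusted p = 0.944), with a 95% interval from 0.76-fold to 1.41-fold, which holds the 1.35-fold rise of miR-148a-3p and ends just below the 1.42-fold rise of miR-148b-3p.

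The scarce passengers gave wide intervals. In the authors' deposited table miR-148b-5p had 0.67 ± 0.65 and miR-152-5p -0.19 ± 1.01 (adjusted p = 0.635 and 0.950). Their 95% intervals ran from 0.66-fold to 3.83-fold and from 0.22-fold to 3.46-fold, so a rise of 2-fold in either could not be told from none at this depth. In all, 2 of 6 members rose and 0 fell, where 4.72% of the 868 microRNAs in the table rose and 5.18% fell. Among the 52 microRNAs at 1000 CPM or more, as both risen guides are, 25% rose. The median log2 fold change was 0.24 over the 6 members and 0.08 over all microRNAs, and 0.13 over those at 10 CPM or more.

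Set relative to that last median, the rises were 0.31 for miR-148a-3p and 0.38 for miR-148b-3p, both still past the threshold, while the value of miR-152-3p turned to -0.08. The variance behind these tests was almost wholly shared between microRNAs, with 164.1 degrees of freedom implied for miR-148a-3p where 6 libraries in 2 groups leave 4. Read with 4 degrees of freedom, the deposited F gave adjusted p-values of 0.158 for miR-148a-3p and 0.227 for miR-148b-3p, and neither was called.

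**Figure D2:**
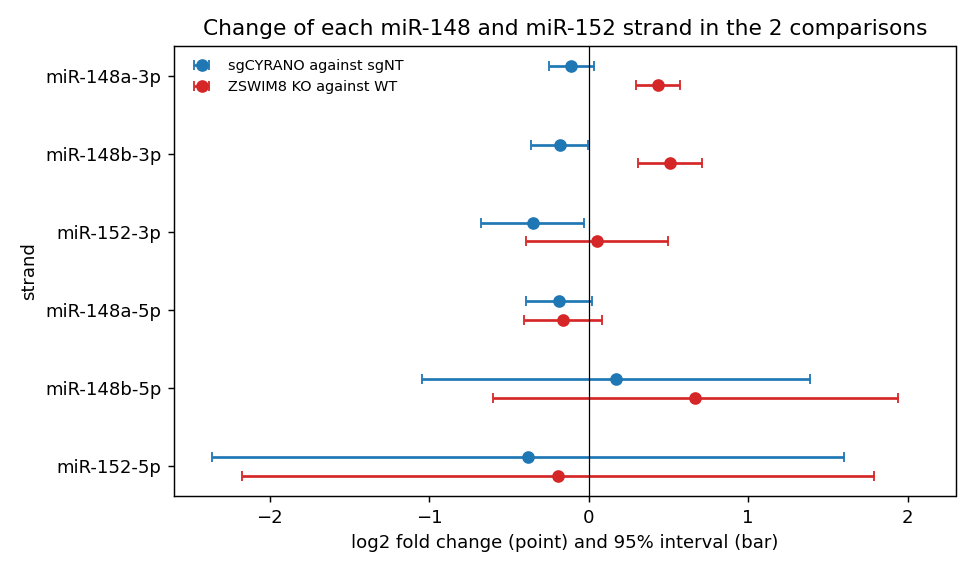
Log2 fold change of each strand (points) with its 95% interval (bars), for sgCYRANO against sgNT in blue and ZSWIM8 KO against WT in red. The intervals of miR-148a-3p and miR-148b-3p in ZSWIM8 KO lie above 0, those of miR-148b-3p and miR-152-3p in sgCYRANO end just below 0 without passing after adjustment, and those of miR-148b-5p and miR-152-5p are the widest.

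In sgCYRANO 0 of the 6 members passed, where 0.119% of 837 microRNAs did. Most members had slightly lower means than in sgNT. In the authors' deposited table (edgeR) the log2 fold change was -0.11 ± 0.07 for miR-148a-3p, -0.18 ± 0.09 for miR-148b-3p and -0.35 ± 0.16 for miR-152-3p, with adjusted p-values of 0.980, 0.828 and 0.816. The 95% interval of miR-148a-3p ran from 0.84-fold to 1.02-fold, and therefore left out the 1.35-fold rise seen for it in ZSWIM8 KO. In the authors' deposited table the passengers had -0.19 ± 0.11 (miR-148a-5p), 0.17 ± 0.62 (miR-148b-5p) and -0.38 ± 1.01 (miR-152-5p). At an unadjusted p under 0.05 (edgeR), 2 members were lower, miR-148b-3p and miR-152-3p, where 2.99% of all microRNAs were lower at that level. The median over the 6 members was -0.18, against 0.01 over all microRNAs.

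**Figure D3:**
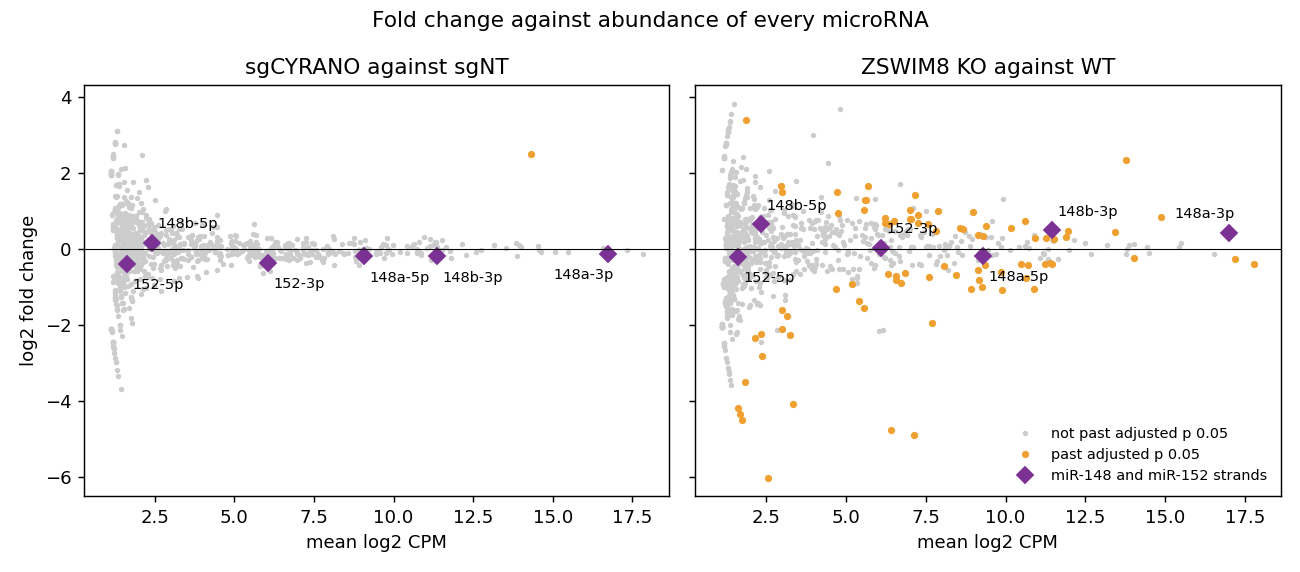
Log2 fold change against mean log2 CPM for every microRNA of both tables; orange points passed an adjusted p of 0.05, and diamonds are the 6 family strands. In ZSWIM8 KO against WT miR-148a-3p (0.43) and miR-148b-3p (0.51) lie among the rises of abundant microRNAs, and in sgCYRANO against sgNT 0 of the 6 passed.

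The changes of the abundant guides differed between the comparisons. The log2 fold change in ZSWIM8 KO minus that in sgCYRANO was 0.54 ± 0.10 for miR-148a-3p (normal test of the difference, adjusted p = 5.14e-06 over 753 microRNAs) and 0.69 ± 0.14 for miR-148b-3p (adjusted p = 3.23e-05). It was 0.40 ± 0.28 for miR-152-3p (adjusted p = 0.561) and 0.02 ± 0.16 for miR-148a-5p (adjusted p = 0.976). With errors from F and a t reference of 8 degrees of freedom, 4 from each comparison, the adjusted p-values were 0.0349 for miR-148a-3p and 0.0491 for miR-148b-3p, and with 4 degrees of freedom they were 0.321 and 0.372, past the threshold no longer. A difference in this direction between the comparisons was called for 3.72% of all microRNAs and for 10% of the 50 at 1000 CPM or more in both tables. The comparisons share no library, but they also differ in their control line, so the agent and the line cannot be told apart.

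The arms of a hairpin come from the same precursor, so the change of one arm was set against that of the other in the same libraries. In ZSWIM8 KO the 3p strand of miR-148a changed by 0.60 ± 0.14 more than its 5p strand on the log2 scale (normal test, adjusted p = 0.00169 over 188 hairpins), and with errors from F and a t reference of 4 degrees of freedom the adjusted p was 0.509. The ratio of miR-148a-3p to miR-148a-5p was accordingly 167.3 in WT and 252.9 in ZSWIM8 KO, and 197.7 in sgNT and 208.4 in sgCYRANO. A difference in this direction was called for 2.13% of the 188 hairpins, and the others were miR-223, miR-130b and miR-25. By size the miR-148a difference ranked 37 among the 188, and the other 3 called differences were larger. In sgCYRANO the miR-148a difference was 0.08 ± 0.13 (adjusted p = 0.966 over 180 hairpins).

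For the other hairpins the arms could not be compared closely. In ZSWIM8 KO the difference was -0.16 ± 0.66 for miR-148b and 0.24 ± 1.04 for miR-152, both with an adjusted p of 0.984. Their 3p to 5p ratios, 697.0 to 975.6 for miR-148b and 56.2 to 67.4 for miR-152, rest on the few passenger reads given above.

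**Figure D4:**
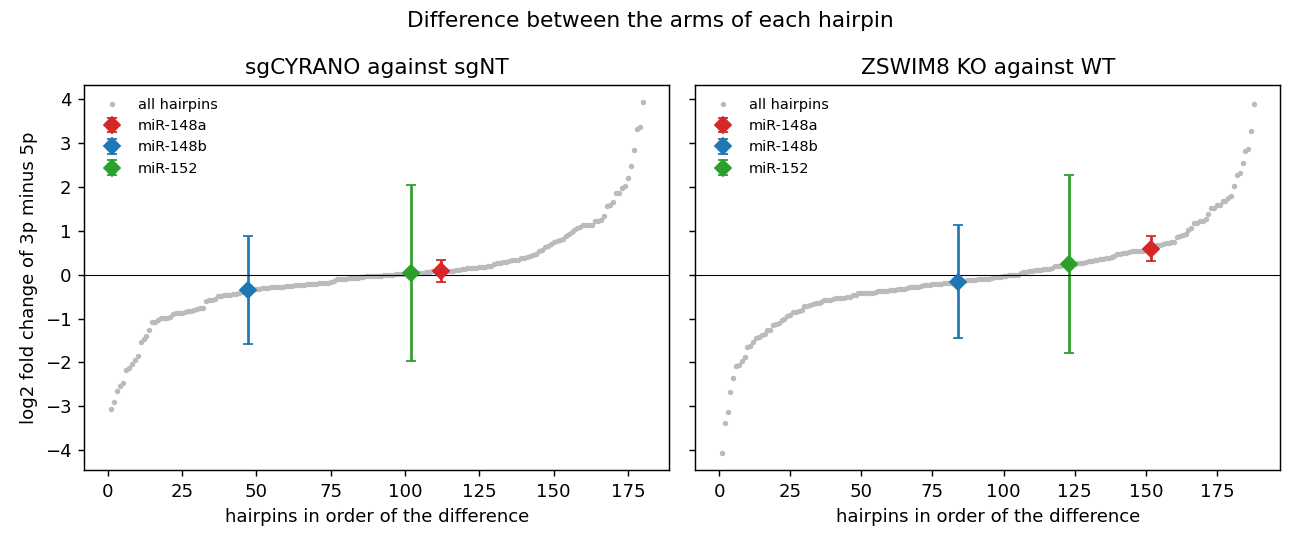
Change of the 3p strand minus change of the 5p strand, on the log2 scale, for every hairpin with both arms listed, in order of size; diamonds with 95% intervals are the family's hairpins. In ZSWIM8 KO the interval of miR-148a (0.60 ± 0.14) lies above 0, while those of miR-148b and miR-152 span it in both panels.

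Within the family, 30 pairs were compared over both comparisons. In ZSWIM8 KO miR-148a-3p and miR-148b-3p each changed by more than miR-148a-5p, by 0.60 ± 0.14 and 0.67 ± 0.16 on the log2 scale (normal test, adjusted p = 0.000547 for both), and these were the 2 pairs that passed. With errors from F and a t reference of 4 degrees of freedom the adjusted p was 0.205 for both. Guides were not shown to differ from one another. The difference of miR-148a-3p from miR-148b-3p was -0.07 ± 0.12 in ZSWIM8 KO and 0.07 ± 0.12 in sgCYRANO (adjusted p = 0.906 for both). miR-148a-3p exceeded miR-152-3p by 0.38 ± 0.24 in ZSWIM8 KO (adjusted p = 0.799), and miR-148b-3p exceeded miR-152-3p by 0.46 ± 0.25 (adjusted p = 0.666).

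MicroRNAs whose seeds hold the core GUGCA at another position share part of the family's pairing rule, though not its full seed. The group of miR-130, miR-301 and miR-454 carries it 1 base, and the miR-19 strands 2 bases, nearer the 5′ end, as these examples show, with bases 2 to 8 in capitals.
miR-130b-3p: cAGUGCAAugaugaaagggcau
miR-454-3p: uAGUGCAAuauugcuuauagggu
miR-19a-3p: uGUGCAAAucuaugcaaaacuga

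In all, 22 names in the RefSeq table had GUGCA within bases 2 to 8, and 8 of them outside the family were measured in both comparisons. The list held 7 strands of this kind, of which 6 were measured. The 2 measured strands outside the list, miR-517c-3p and miR-3944-5p, were counted wherever GUGCA lay within bases 2 to 8, the family's own position included. They are named here after their values were seen. Neither passed in ZSWIM8 KO. In ZSWIM8 KO the test called 4 of the 6 listed and measured strands, with 2 higher and 2 lower. Of all microRNAs 4.72% rose and 5.18% fell. Calls were more frequent at high abundance, since 25% of microRNAs at 1000 CPM or more rose. Both lower strands were at that level, for which the share that fell was not counted. Both miR-130b-3p and miR-454-3p rose, by 0.56 ± 0.14 and 0.70 ± 0.18 on the log2 scale in the authors' deposited table (adjusted p = 0.00164 and 0.00242). In the same comparison miR-19a-3p fell by 0.35 ± 0.10 and miR-19b-3p, whose sequence lies in more than 1 hairpin, fell by 0.42 ± 0.11 in the authors' deposited table (adjusted p = 0.0106 and 0.00242). The list's median was 0.42 in ZSWIM8 KO, against 0.08 over all microRNAs and 0.13 over those at 10 CPM or more. That median hides opposite directions, since the log2 fold change was positive for 4 of the 6 and negative for 2, the miR-19 strands. The summed level of the list was lower in ZSWIM8 KO, with 5434 CPM in WT and 4572 in ZSWIM8 KO, and most of it came from the miR-19 strands. In sgCYRANO 0 of 6 passed, where 0.119% of 837 microRNAs did, and the median was 0.00 against 0.01 over all microRNAs.

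Reported repressors of DNA methyltransferases outside the family were listed as 9 strands, and 9 were measured. In ZSWIM8 KO 2 rose and 7 did not pass, where 4.72% of all microRNAs and 25% of those at 1000 CPM or more rose. The log2 fold change was positive for 5 of the 9 and negative for 4, with a median of 0.17 against 0.13 over all microRNAs at 10 CPM or more. The strand miR-185-5p, reported to repress DNMT1, rose by 0.48 ± 0.10 in the authors' deposited table (3310 to 4614 CPM, adjusted p = 3.02e-05) and miR-342-3p by 0.80 ± 0.19 (93.7 to 163.1 CPM, adjusted p = 0.000768). The most abundant of the list, miR-126-3p, had 0.17 ± 0.07 in the authors' deposited table (adjusted p = 0.123), and miR-101-3p had -0.23 ± 0.10 (adjusted p = 0.143). In sgCYRANO 0 of the 9 passed, where 0.119% of 837 microRNAs did. The log2 fold change there was positive for 1 and negative for 8. Its median was -0.16, against -0.02 over all microRNAs at 10 CPM or more.

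The microRNAs whose pair of log2 fold changes lay nearest to that of miR-148a-3p, among 48 others at 1000 CPM or more in both tables, were miR-452-5p, miR-185-5p and miR-192-5p. Likeness was the straight-line distance over the 2 comparisons, which was 0.07, 0.08 and 0.14 for these and 0.10 for miR-148b-3p. For miR-452-5p the authors' deposited table gave -0.15 ± 0.09 in sgCYRANO and 0.37 ± 0.55 in ZSWIM8 KO, a far larger error than that of miR-148a-3p. miR-192-5p had -0.06 ± 0.09 and 0.30 ± 0.11 (adjusted p = 0.984 and 0.0672 in the authors' deposited table).

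CYRANO itself, annotated as OIP5-AS1, was searched for TGCACTG, the DNA letters on the transcript strand that pair with bases 2 to 8 of the guides. Its longest annotated transcript, of 8829 bases, held 1 match, at transcript positions 8820 to 8826 close to its 3′ end, shown with the match in capitals.
OIP5-AS1: ggctgagaaTGCACTGaaa

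Of 241 annotated non-coding transcripts of 80% to 120% of that length, 51.0% held the same letters at least once. The other 9 annotated OIP5-AS1 transcripts held none.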

How the data were processed

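Small RNA from 12 K562 libraries was measured, 3 per group. STAR, featureCounts, edgeR, bcl2fastq, FastQC 0.11.2 and hg19 are listed, per the submitters' processing notes, with no account of their roles. The authors deposited 1 edgeR table per comparison. Its columns, per the file headers, are log2 fold change, mean log2 CPM, the F statistic (a score) and p-values before and after adjustment. The design had also provided for counts per library, and those alternatives were not run.

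The authors' deposited adjusted p-values were recovered from the unadjusted ones by the Benjamini-Hochberg method over every row to within 1.09e-06. Group mean CPM came from inverting both deposited log2 columns with prior counts assumed for the authors' edgeR, and summed to 1000000 in each group. From this sum it was inferred that values already scaled to library totals were tested, which the labels do not state. Counting error would then have been set as if each library held 1000000 reads. Sums of whole reads from 3 libraries matched 281 of 281, 263 of 263, 299 of 299 and 275 of 275 low means (sgNT, sgCYRANO, WT, ZSWIM8 KO) within 0.0015 CPM, giving group totals of 5490000, 5290000, 3810000 and 7060000 reads. Were the fold changes turned, paired groups would change places.

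Dividing each log2 fold change by the normal deviate of its p gave the standard errors. Differences between comparisons, arms (paired by name) and members used these errors, a two-sided normal reference and Benjamini-Hochberg adjustment. Arms and members share libraries, so their errors need not be independent. The depositors call the replicates biological. Named microRNAs are all members, members of both lists that were called or among the 3 most abundant, rows next to a member in abundance, and the 3 nearest in pattern, with miR-7-5p as the check of the labels and markers of cell types. The marker strands singled out, the hairpins miR-223, miR-130b and miR-25, and the unlisted strands with GUGCA were named after their values were seen. Members and lists were chosen with earlier results of these data known. Sequences and coordinates are from RefSeq and GENCODE 29, both GRCh38. The recovery of group means was checked only on columns rebuilt from those means with the same formula. The difference between comparisons and the reading of library totals were tested on simulated data. The other steps were not tested in this way. For the difference, the simulated fold changes came from the same normal distribution that the test assumes, with changes larger than those of the family. That check therefore cannot show whether the normal reference holds with 3 libraries per group. Python 3.11.15 and scipy 1.17.1 were used.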

Additional observations from a re-analysis of the deposited data

How the results depend on the processing

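The 2 rises in ZSWIM8 KO kept their direction and their call when p was adjusted over microRNAs at 10 CPM or more or at 1 CPM or more, after centring on the median or the trimmed mean, and under Bonferroni adjustment. With 4 denominator degrees of freedom the count of called members was 0. The count in sgCYRANO was 0 under the same alternatives. The 2 differences between comparisons, the 1 arm difference and the 2 member differences were called too with errors taken from F, and the first also after centring. In alternatives chosen after seeing the data, the deposited F gave the errors and a t distribution the reference. With 4 degrees of freedom, 0 differences between comparisons, 0 arm differences and 0 member differences were called, while with 8 the 2 differences between comparisons were still called. Leaving out the prior counts moved the guide sums by less than counting error, but raised 7 of the 8 means of miR-148b-5p and miR-152-5p beyond it, to 2.70 to 6.30 CPM. No paired analysis was possible because the deposited tables carry no values of single libraries, and for the same reason no library could be left out. The deposited errors do not show each strand's own spread over libraries.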
